A study of Homo sapiens with 9 samples.

Results

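The genes described here are 29 genes of cholesterol synthesis, its control, and the movement, storage and export of sterol inside the cell. They were chosen by gene symbol as textbook members of the pathway, but with earlier results of these data known. Their shares of calls are therefore a description and not a test. All 29 were found among the 18364 genes of the deposited table. They fall into 7 mevalonate enzymes, 11 enzymes of the sterol branch, 5 genes of SREBP control, 3 genes of intracellular transport and 3 of efflux and esterification. The list does not hold every gene of the pathway. All 29 had a mean of at least 1 CPM (reads scaled to the size of the library) over the tumours and so entered the comparison, which covered 15578 genes.

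RNA came from tumours that LN229 cells, an established human glioblastoma line, formed in the brains of nude mice and that were taken at the terminal stage. In 6 tumours the cells were LN229-4SA, of genotype TAZ-4SA, and in 3 they were LN229-EV, carrying the empty vector. TAZ is a transcriptional co-activator encoded by WWTR1 that the Hippo pathway restrains and that binds DNA through TEAD factors, and the 4SA form is known as one that escapes inhibition by LATS kinases. The study asked how active TAZ changes gene expression in glioblastoma. Both groups share the LN229 background and the immunodeficient host, so the comparison concerns 1 cell line, and the promoter driving TAZ-4SA and the clonality of the cells are not stated in the labels.

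Cholesterol is built from acetyl-CoA through mevalonate and farnesyl diphosphate, then through squalene and lanosterol in a long series of demethylations, reductions and isomerizations. When membranes of the endoplasmic reticulum are low in sterol, the escort protein SCAP carries SREBP factors to the Golgi, where proteolysis frees the part that switches on the synthesis genes. When sterol is plentiful, INSIG proteins hold SCAP back. Surplus cholesterol is stored as esters or exported by ABC transporters under the control of LXR receptors. Brain makes its own cholesterol, because plasma lipoproteins do not cross the blood-brain barrier, and glioblastoma cells are known for relying on uptake and for sensitivity to LXR activation.

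Of the 29 genes, 5 were higher and 1 was lower in TAZ-4SA tumours at a Benjamini-Hochberg adjusted p under 0.05 in limma, and 23 were not called. In what follows, a gene is called if it passed that threshold in limma on the deposited values, unless another fit is named. The higher genes were HMGCS1, which makes HMG-CoA, the precursor of mevalonate, CYP51A1, the lanosterol demethylase, INSIG1, the sterol-regulated brake on SREBP processing, ABCA1, the main cholesterol exporter, and SOAT1, which forms cholesterol esters. The lower gene was SCAP. Thus 17.2% of the cholesterol genes were called higher, against 9.02% of all genes tested, and 3.45% were called lower, against 13.3% of all genes tested. The difference was smaller among genes averaging 10 CPM or more, which left 27 of the 29. There 18.5% of the cholesterol genes were called higher, against 13.3% of all genes, and 3.7% lower, against 9.26%. The lower share depended on the fit. It was 13.8% of the cholesterol genes, against 15.7% of all genes, with a pseudocount of 1 CPM, and 17.2%, against 23.4%, in limma-voom, which models the recovered reads with a weight for each value. The higher share in limma-voom was 17.2%, against 8.29% of all genes. The median log2 fold change was -0.50 over the 29 genes and -0.85 over all genes tested, and 12 of the 29 genes had a value above 0 (41.4%, against 32.6% of all genes). The median of all genes thus lay below 0, and it was -0.05 under quantile normalization, which called 6 cholesterol genes higher and 2 lower. Over all genes, quantile normalization called 2042 higher and 1626 lower (13.1% and 10.4%), and the fit on the deposited values 1405 and 2079. Measured from the median of all genes, the 5 higher genes stood at log2 2.76 to 4.55 and SCAP at -1.24.

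The promoters of the 6 called genes are printed because the synthesis genes are textbook targets of SREBP, and TEAD factors are the DNA-binding partners of TAZ. Each window runs from 250 bases before to 50 bases after a transcript start in RefSeq (GRCh38.p14). That start is the outermost end of the gene except for CYP51A1 and SCAP, where it lies 326 and 1186 bases inside it, and HMGCS1 has 2 windows, of which the outer one is shown. Each sequence is written 5′ to 3′ on the gene's strand, and shows in capitals the E-box (CACGTG) and the CCAAT box, which reads ATTGG where it lies on the other strand. Neither the sterol regulatory element nor the TEAD motif, in the letters given below, occurs in these 6 windows.
HMGCS1, chr5:43313363-43313662, minus strand: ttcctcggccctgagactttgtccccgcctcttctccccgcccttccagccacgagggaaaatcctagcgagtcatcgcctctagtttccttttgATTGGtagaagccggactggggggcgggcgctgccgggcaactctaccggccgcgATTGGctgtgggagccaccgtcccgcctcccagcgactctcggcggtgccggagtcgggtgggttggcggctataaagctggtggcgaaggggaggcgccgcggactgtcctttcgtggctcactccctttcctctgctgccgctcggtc
CYP51A1, chr7:92134428-92134727, minus strand: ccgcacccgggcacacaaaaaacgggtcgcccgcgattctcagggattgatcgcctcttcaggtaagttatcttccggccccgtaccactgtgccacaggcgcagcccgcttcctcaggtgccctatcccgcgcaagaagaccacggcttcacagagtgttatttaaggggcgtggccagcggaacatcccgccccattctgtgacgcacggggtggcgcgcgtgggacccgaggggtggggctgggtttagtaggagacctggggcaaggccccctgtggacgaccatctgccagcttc
INSIG1, chr7:155297628-155297927, plus strand: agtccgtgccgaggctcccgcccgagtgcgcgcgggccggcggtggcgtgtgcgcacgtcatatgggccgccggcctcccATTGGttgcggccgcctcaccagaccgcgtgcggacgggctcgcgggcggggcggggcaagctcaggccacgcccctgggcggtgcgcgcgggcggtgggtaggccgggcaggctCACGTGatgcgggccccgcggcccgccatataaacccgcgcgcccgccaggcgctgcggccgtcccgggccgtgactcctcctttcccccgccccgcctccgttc
SCAP, chr3:47475892-47476191, minus strand: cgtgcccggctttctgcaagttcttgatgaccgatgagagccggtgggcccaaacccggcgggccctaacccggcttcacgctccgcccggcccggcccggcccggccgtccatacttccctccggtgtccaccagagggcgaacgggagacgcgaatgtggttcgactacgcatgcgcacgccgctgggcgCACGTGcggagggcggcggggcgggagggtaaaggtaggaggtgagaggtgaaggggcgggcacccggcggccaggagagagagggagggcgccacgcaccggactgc
ABCA1, chr9:104928106-104928405, minus strand: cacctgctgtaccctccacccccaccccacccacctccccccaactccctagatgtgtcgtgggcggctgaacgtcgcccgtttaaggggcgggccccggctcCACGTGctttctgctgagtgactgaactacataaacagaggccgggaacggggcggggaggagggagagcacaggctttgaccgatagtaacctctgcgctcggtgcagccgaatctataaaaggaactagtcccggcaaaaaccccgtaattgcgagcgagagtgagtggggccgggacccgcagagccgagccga
SOAT1, chr1:179293547-179293846, plus strand: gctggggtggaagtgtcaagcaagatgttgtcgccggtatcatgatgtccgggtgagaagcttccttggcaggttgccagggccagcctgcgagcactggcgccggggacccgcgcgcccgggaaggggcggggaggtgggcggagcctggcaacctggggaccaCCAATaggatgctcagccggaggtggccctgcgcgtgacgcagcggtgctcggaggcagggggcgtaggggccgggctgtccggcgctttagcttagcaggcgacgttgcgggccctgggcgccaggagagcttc

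RefSeq windows were at hand for 25 of the 29 genes, and both strands were searched. A gene was counted if any of its windows held the motif, while the shares of all windows count each window. The sterol regulatory element, searched as TCACNCCAC, occurred in 1 of the 25, SREBF2, against 1.41% of tested genes with a window and 1.13% of all 35116 windows. The CCAAT box, bound by NF-Y, a known partner of SREBP, occurred in 18 of the 25 (72%), against 42.9% of tested genes and 34.6% of all windows. The E-box occurred in 5 (20%), namely LSS, SC5D, SCAP, INSIG1 and ABCA1, against 12.1% of tested genes and 7.26% of all windows. The TEAD motif, searched as CATTCC, occurred in 5 (20%), namely PMVK, HSD17B7, EBP, NPC2 and STARD4, against 15.3% of tested genes and 14.0% of all windows. None of the 5 genes that rose holds the TEAD motif in its window. The shares describe letters in these windows and were not tested.

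The libraries differed between groups in ways that bear on these genes. Recovered reads lay between 3144861 and 31468135 in TAZ-4SA tumours and between 17314672 and 21576264 in EV tumours. The share of tested genes without a read ran from 7.75% to 30.8% over the TAZ-4SA tumours and from 0.956% to 1.34% over the EV tumours, and 6 of the 29 cholesterol genes were without a read in 1 or more TAZ-4SA tumours. These 6 were ACAT2, MVK, PMVK, TM7SF2, INSIG2 and ABCG1, and the share of all tested genes with such a tumour was 45.2%. A count of 0 still allows a level of 3 reads, which was 0.108 to 0.917 CPM for TAZ-4SA libraries and 0.141 to 0.193 CPM for EV libraries, counting error only. WWTR1, the gene of the construct, lay between 218 and 449 CPM in TAZ-4SA tumours and between 116 and 123 CPM in EV tumours (exact two-sided permutation test, p = 0.02381). That p doubles the one-sided value and is the smallest that this test allows over 84 arrangements. Reads from the introduced sequence and the resident gene cannot be told apart. The 6 glioma markers summed to 1875 to 3056 CPM in TAZ-4SA and 3253 to 3642 CPM in EV, but they differed in direction: VIM averaged 2250 CPM in TAZ-4SA, against 1820 CPM in EV, and NES 158 CPM in TAZ-4SA, against 1324 CPM in EV. S100B averaged 2.95 CPM in TAZ-4SA, against 208 CPM in EV, and OLIG2 4.19 CPM in TAZ-4SA, against 35.0 CPM in EV. Neuronal markers summed to 819 and 1291 CPM in TAZ-4SA tumours 5 and 6 and to 84.5 to 200 CPM in TAZ-4SA tumours 1 to 4, against 29.7 to 133 CPM in EV. Oligodendrocyte markers summed to 29.9 to 381 CPM in TAZ-4SA and 549 to 663 CPM in EV. MOG and MOBP had 0 reads in every TAZ-4SA tumour, but averaged only 0.11 and 0.68 CPM in EV. The level of 3 reads was 0.160, 0.303, 0.184 and 0.108 CPM in TAZ-4SA tumours 1 to 4, and 0.840 and 0.917 CPM in tumours 5 and 6. The EV mean of MOG lay under that level in every TAZ-4SA tumour but tumour 4. The EV mean of MOBP lay above it in tumours 1 to 4 and under it in tumours 5 and 6. The microglia and macrophage list, with 6 of 8 markers in the table and P2RY12 at 0 reads in every TAZ-4SA tumour, summed to 54.7 to 142 CPM in TAZ-4SA and 16.1 to 25.6 CPM in EV. Most of it was CD68, with a mean of 88.2 CPM in TAZ-4SA, against 16.4 CPM in EV, while PTPRC and TYROBP had 0 reads in 5 of 6 TAZ-4SA tumours and ITGAM in 4. These markers were low in EV as well, where P2RY12, PTPRC, TYROBP and ITGAM averaged 0.13, 0.035, 0.021 and 2.26 CPM. Endothelial markers summed to 0 to 13.2 CPM in TAZ-4SA and 9.48 to 14.6 CPM in EV, and astrocyte markers to 61.6 to 109 CPM in TAZ-4SA and 38.1 to 57.7 CPM in EV. In bulk tumours, fewer cells of a type and less RNA per cell cannot be told apart, and the part of these cell types in the results below was not tested. All 6 calls held with TAZ-4SA tumours 5 and 6 left out, and they held with tumours 2, 3 and 4 left out.

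Among the 7 mevalonate enzymes, HMGCS1 rose and the other 6 were not called by limma, while limma-voom called FDPS and PMVK lower too. HMGCS1 (Entrez 3157, chromosome 5 from 43287470 to 43313412, GRCh38), the cytosolic HMG-CoA synthase, had 47.0, 129 and 181 CPM as the lowest, median and highest TAZ-4SA values, against 23.0, 14.1 and 26.3 CPM in EV tumours 1 to 3. TAZ-4SA tumours 1, 2 and 4 were the high ones, tumour 5 was the lowest, and the groups did not overlap. The mean was 123 ± 59.5 CPM in TAZ-4SA, against 21.1 ± 6.30 CPM in EV (SD, n = 6 and n = 3), a log2 fold change of 2.42 ± 0.47 (SE; 95% interval 1.39 to 3.45; limma adjusted p = 0.003605). IDI1, which interconverts the isopentenyl units, averaged 34.9 ± 20.6 CPM in TAZ-4SA against 14.8 ± 4.88 CPM in EV. Its groups overlapped through TAZ-4SA tumour 3 (log2 fold change 1.06, limma adjusted p = 0.2184). IDI1 has 3 named pseudogene copies.

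The other 5 mevalonate enzymes had log2 fold changes below 0. FDPS, the farnesyl diphosphate synthase, lay between 29.6 and 120 CPM in TAZ-4SA, against 193, 195 and 140 CPM in EV. Every TAZ-4SA value was under every EV value, and the gene narrowly missed the threshold with a log2 fold change of -1.42 (95% interval -2.46 to -0.38; limma adjusted p = 0.05144). FDPS has 10 named pseudogene copies, among which counting can split reads, and RUSC1-AS1 overlaps 3812 bases of it. PMVK, the phosphomevalonate kinase, lay between 0 and 27.4 CPM in TAZ-4SA and between 45.6 and 75.7 CPM in EV, again without overlap (log2 fold change -3.42, limma adjusted p = 0.09779). Its lowest value was 0 reads in TAZ-4SA tumour 4, which holds the most reads of the 9 libraries. MVK, the mevalonate kinase, had 0 reads in TAZ-4SA tumours 2 and 4 and 45.7 CPM in tumour 3, against 14.4 to 20.9 CPM in EV. MVD, the decarboxylase that follows PMVK, lay between 5.85 and 45.9 CPM in TAZ-4SA and between 35.6 and 54.3 CPM in EV. ACAT2, the cytosolic acetoacetyl-CoA thiolase, lay between 0 and 36.1 CPM in TAZ-4SA and between 19.1 and 23.7 CPM in EV, and it shares 615 bases with TCP1 and 237 with SOD2 in libraries that do not keep the strand. MVK, MVD and ACAT2 overlapped between groups, with wide intervals. The median log2 fold change over the 7 enzymes was -1.42.

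**Figure D1:**
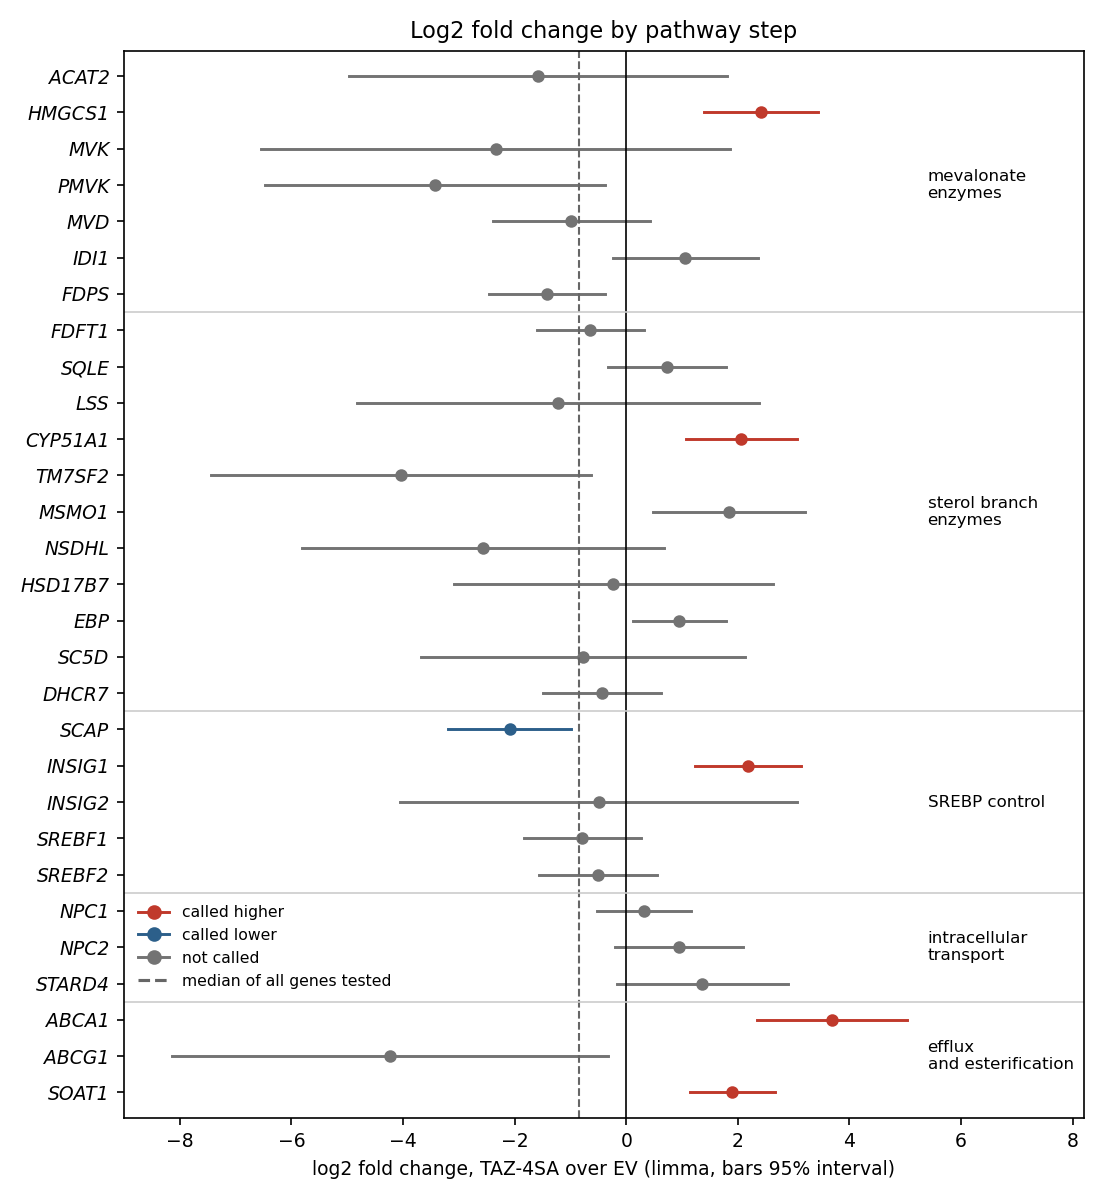
Log2 fold change of each of the 29 genes (x axis, TAZ-4SA over EV, limma) by pathway step (y axis), with points for the estimate and bars for its 95% interval; red marks genes called higher, blue lower and grey not called. The 5 red points lie between 1.90 and 3.70, SCAP alone is blue at -2.09, and the dashed line is the median of all genes tested at -0.85.

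In the sterol branch, CYP51A1 rose and 10 of the 11 enzymes were not called by limma, while limma-voom also called EBP higher and TM7SF2 lower. CYP51A1 (Entrez 1595, chromosome 7 from 92112153 to 92134803), which removes the methyl group at carbon 14 of lanosterol, had 55.1, 143 and 274 CPM as the lowest, median and highest TAZ-4SA values, against 33.1, 27.9 and 37.9 CPM in EV tumours 1 to 3. Tumour 4 was the highest and tumour 5 the lowest of the TAZ-4SA tumours, all of them above the EV tumours. The mean was 156 ± 81.1 CPM in TAZ-4SA, against 33.0 ± 5.00 CPM in EV, a log2 fold change of 2.06 ± 0.46 (SE; 95% interval 1.06 to 3.06; limma adjusted p = 0.007393). The gene has 3 named pseudogene copies, and CYP51A1-AS1, which overlaps 241 bases of it, averaged 0.403 CPM over TAZ-4SA tumours and 1.22 CPM over EV tumours.

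MSMO1 and EBP stood above EV in every TAZ-4SA tumour without passing the threshold in limma. MSMO1, the C4 sterol methyl oxidase that acts soon after CYP51A1, lay between 17.5 and 148 CPM in TAZ-4SA, against 13.0, 11.7 and 15.3 CPM in EV (log2 fold change 1.84, 95% interval 0.48 to 3.20; limma adjusted p = 0.05272). EBP, the sterol isomerase, lay between 40.6 and 119 CPM in TAZ-4SA, against 35.7, 40.0 and 36.2 CPM in EV (log2 fold change 0.95, 95% interval 0.12 to 1.79; limma adjusted p = 0.09423), and limma-voom called it at 1.12 (limma-voom adjusted p = 0.03927). For EBP the gap between TAZ-4SA tumour 5 and EV tumour 2 was under 1 CPM.

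TM7SF2 and NSDHL stood under EV in every TAZ-4SA tumour, also without passing the threshold in limma. TM7SF2, a sterol C14 reductase, lay between 0 and 13.3 CPM in TAZ-4SA and between 30.6 and 43.0 CPM in EV (log2 fold change -4.04, limma adjusted p = 0.08322). NSDHL, the dehydrogenase of C4 demethylation, lay between 0.184 and 19.7 CPM in TAZ-4SA and between 26.6 and 30.9 CPM in EV (log2 fold change -2.57, limma adjusted p = 0.2296). Its low values came from TAZ-4SA tumours 2 and 3, the tumours with the highest shares of tested genes at 0 reads. LBR, a second C14 reductase outside the 29, was higher, as given with the other pathway genes.

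The remaining 6 enzymes of the branch overlapped between groups. FDFT1, the squalene synthase, averaged 118 ± 69.8 CPM in TAZ-4SA, against 163 ± 34.5 CPM in EV. SQLE, the squalene epoxidase, averaged 42.9 ± 24.4 CPM in TAZ-4SA, against 23.1 ± 2.60 CPM in EV. The TAZ-4SA tumour under the EV values for SQLE was tumour 5, at 19.3 CPM. LSS, the lanosterol synthase, lay between 0.101 and 42.5 CPM in TAZ-4SA and between 6.28 and 6.84 CPM in EV. HSD17B7, the 3-ketosteroid reductase of C4 demethylation, lay between 0.307 and 20.5 CPM in TAZ-4SA and between 4.90 and 10.8 CPM in EV, and SC5D, the lathosterol desaturase, between 0.246 and 85.4 CPM in TAZ-4SA and between 22.3 and 26.9 CPM in EV. DHCR7, the reductase of the last step in one route to cholesterol, lay between 31.2 and 188 CPM in TAZ-4SA and between 76.1 and 122 CPM in EV. The log2 fold changes of these 6 enzymes lay between -1.22 and 0.73, with limma adjusted p-values from 0.293 to 0.9131. LSS, SC5D and DHCR7 spanned a wide range within TAZ-4SA on both sides of the narrow EV range.

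Summed over all 18 enzymes of the mevalonate part and the sterol branch, the level was 915 ± 278 CPM in TAZ-4SA, against 835 ± 52.5 CPM in EV, and the groups overlapped. Both higher calls, HMGCS1 and CYP51A1, sat in a set with 6 log2 fold changes above 0 and 12 below. LSS, HSD17B7 and SC5D were among the 12, although their mean CPM was higher in TAZ-4SA. Their means were 10.2, 10.8 and 30.4 CPM in TAZ-4SA, against 6.65, 8.15 and 24.5 CPM in EV. Their lowest TAZ-4SA values were 0.101, 0.307 and 0.246 CPM. The others among the 12 had a lower mean CPM in TAZ-4SA. Of the 18 enzymes, 4 lay wholly above EV (HMGCS1, CYP51A1, MSMO1 and EBP) and 4 wholly below (PMVK, FDPS, TM7SF2 and NSDHL). Over all genes tested, 10.8% lay wholly above and 21.3% wholly below.

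**Figure D2:**
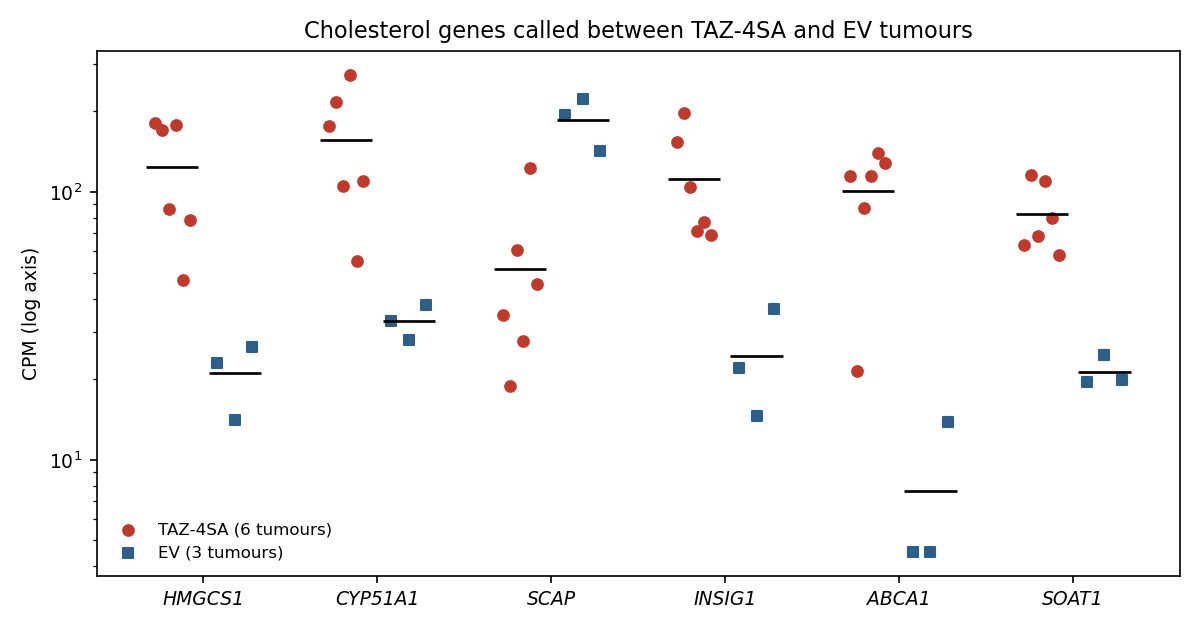
CPM on a log axis (y) of the 6 called genes (x), with 1 circle for each of 6 TAZ-4SA tumours, 1 square for each of 3 EV tumours, and black lines at the group means. The groups do not overlap for any of the 6 genes; ABCA1 has 1 low TAZ-4SA tumour at 21.5 CPM against an EV maximum of 13.9 CPM.

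Among the genes of SREBP control, INSIG1 rose, SCAP fell and the other 3 were not called. INSIG1 (Entrez 3638, chromosome 7 from 155297878 to 155310235) had 69.1, 90.9 and 197 CPM as the lowest, median and highest TAZ-4SA values, against 22.1, 14.5 and 36.6 CPM in EV tumours 1 to 3. TAZ-4SA tumours 2 and 1 were the highest, and all 6 lay above EV tumour 3, the highest of its group. The mean was 112 ± 52.2 CPM in TAZ-4SA, against 24.4 ± 11.2 CPM in EV, a log2 fold change of 2.17 ± 0.44 (SE; 95% interval 1.22 to 3.12; limma adjusted p = 0.004103).

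SCAP (Entrez 22937, chromosome 3 from 47413681 to 47477127) had 18.9, 40.0 and 123 CPM as the lowest, median and highest TAZ-4SA values, against 195, 221 and 142 CPM in EV tumours 1 to 3. TAZ-4SA tumour 5 was the highest and tumour 2 the lowest, and no TAZ-4SA value reached the EV range. The mean was 51.7 ± 37.8 CPM in TAZ-4SA, against 186 ± 40.6 CPM in EV, a log2 fold change of -2.09 ± 0.51 (SE; 95% interval -3.20 to -0.98; limma adjusted p = 0.01194). The call was lost without EV tumour 1 (limma adjusted p = 0.05377) and without EV tumour 2 (limma adjusted p = 0.06461), with log2 fold changes of -2.04 and -1.95.

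INSIG2, the paralog of INSIG1 that is less dependent on SREBP, had 0, 21.3 and 110 CPM as the lowest, median and highest TAZ-4SA values, against 20.9, 27.4 and 10.8 CPM in EV tumours 1 to 3. Tumour 6 was at 0 reads and tumour 2 was the high one, so the groups overlapped (log2 fold change -0.50, 95% interval -4.06 to 3.07; limma adjusted p = 0.8449). SREBF2, which encodes the SREBP form devoted to cholesterol genes, had 60.2, 92.9 and 276 CPM as the lowest, median and highest TAZ-4SA values, against 180.5, 163 and 160 CPM in EV tumours 1 to 3. SREBF1, whose products mainly drive fatty acid genes, had 44.1, 73.1 and 177 CPM in TAZ-4SA in the same order, against 111, 153 and 171 CPM in EV. For both factors TAZ-4SA tumours 3 and 5 were the high ones, above the EV values, while the other 4 lay under them. The log2 fold changes were -0.51 for SREBF2 (95% interval -1.56 to 0.55; limma adjusted p = 0.464) and -0.79 for SREBF1 (95% interval -1.84 to 0.26; limma adjusted p = 0.2523).

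Of the 3 intracellular transport genes, 0 were called by limma, 0 had an unadjusted p under 0.05 and 0 were called by limma-voom. NPC1, the membrane protein that moves cholesterol out of lysosomes, had 32.7, 64.0 and 115 CPM as the lowest, median and highest TAZ-4SA values, against 52.4, 52.0 and 47.0 CPM in EV tumours 1 to 3. RMC1 overlaps 25639 bases of the NPC1 locus and averaged 23.5 CPM over TAZ-4SA tumours and 18.4 CPM over EV tumours. NPC2, the soluble partner of NPC1 in the lysosome, had 22.0, 71.5 and 127 CPM in TAZ-4SA in the same order, against 29.4, 32.6 and 35.2 CPM in EV. Tumour 6 was the lowest TAZ-4SA tumour for both genes and the only one under the EV values of NPC2. STARD4, a soluble carrier of cholesterol between membranes and an SREBP target, lay between 8.60 and 86.8 CPM in TAZ-4SA and between 9.32 and 11.2 CPM in EV. Tumour 3 was the only TAZ-4SA tumour inside or under the EV range of STARD4. The log2 fold changes were 0.32 for NPC1, 0.95 for NPC2 and 1.37 for STARD4, with limma adjusted p-values of 0.5644, 0.2095 and 0.1798.

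Efflux and esterification held both remaining calls, ABCA1 and SOAT1. ABCA1 (Entrez 19, chromosome 9 from 104781006 to 104928155), which loads cholesterol onto apolipoproteins at the cell surface, had 21.5, 115 and 140 CPM as the lowest, median and highest TAZ-4SA values, against 4.54, 4.54 and 13.9 CPM in EV tumours 1 to 3. TAZ-4SA tumour 2 was the low one, and it still lay above EV tumour 3. The mean was 101 ± 42.8 CPM in TAZ-4SA, against 7.65 ± 5.38 CPM in EV, a log2 fold change of 3.70 ± 0.62 (SE; 95% interval 2.35 to 5.04; limma adjusted p = 0.001505), the highest of the 29 genes. NIPSNAP3B, which overlaps 9894 bases of the locus, averaged 0.403 CPM over TAZ-4SA tumours and 3.96 CPM over EV tumours. In limma-voom ABCA1 missed the threshold at a log2 fold change of 3.74 (limma-voom adjusted p = 0.05522).

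SOAT1 (Entrez 6646, chromosome 1 from 179293797 to 179358680), the acyltransferase of the endoplasmic reticulum that makes cholesterol esters for lipid droplets, had 58.4, 74.2 and 116 CPM as the lowest, median and highest TAZ-4SA values, against 19.6, 24.7 and 19.8 CPM in EV tumours 1 to 3. All 6 TAZ-4SA values lay above EV tumour 2, the highest of its group. The mean was 82.7 ± 24.6 CPM in TAZ-4SA, against 21.3 ± 2.87 CPM in EV, a log2 fold change of 1.90 ± 0.35 (SE; 95% interval 1.15 to 2.66; limma adjusted p = 0.002523). SOAT1 had the smallest standard error of the 6 called genes.

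ABCG1, the transporter that works after ABCA1 in exporting sterol to mature lipoproteins, was not called by limma and was called lower by limma-voom (log2 fold change -5.09, limma-voom adjusted p = 0.03638). It had 0 reads in TAZ-4SA tumours 1 to 4, 16.5 CPM in tumour 5 and 8.25 CPM in tumour 6, against 10.5, 11.5 and 13.3 CPM in EV tumours 1 to 3. Tumour 5 lay above the EV values, so the groups overlapped (log2 fold change -4.24, 95% interval -8.14 to -0.33; limma adjusted p = 0.109). Tumours 5 and 6, which alone had ABCG1 reads among TAZ-4SA tumours, were also those with the high neuronal marker sums. Their oligodendrocyte marker sums were high too, at 381 and 287 CPM, against 29.9 to 91.5 CPM in tumours 1 to 4. They also had the fewest recovered reads and the lowest shares of tested genes at 0 reads (7.75% and 16.7%, against 18.2% to 30.8%). The part of these traits in the ABCG1 values was not tested. Summed over ABCA1, ABCG1 and SOAT1, the level was 188 ± 38.5 CPM in TAZ-4SA, against 40.8 ± 6.19 CPM in EV, without overlap.

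Ratios within a tumour do not depend on how libraries were scaled. The log2 ratio of ABCA1 to ABCG1, with 0.5 reads added to each, had 3.08, 10.1 and 12.6 as its lowest, median and highest TAZ-4SA values, against -1.20, -1.33 and 0.055 in EV tumours 1 to 3. It was above EV in all 6 TAZ-4SA tumours, and in tumours 1 to 4 its size depends on the reads added, since ABCG1 was at 0 reads there. The log2 ratio of INSIG1 to INSIG2 had 0.84, 2.04 and 8.82 in TAZ-4SA in the same order, against 0.078, -0.91 and 1.75 in EV, with an overlap through EV tumour 3. The 8.82 is that of TAZ-4SA tumour 6, where INSIG2 was at 0 reads, so its size depends on the reads added. The next highest TAZ-4SA value was 2.45, in tumour 3. The log2 ratio of SREBF1 to SREBF2 lay between -0.75 and -0.02 in TAZ-4SA and between -0.71 and 0.099 in EV, and that of NPC1 to NPC2 between -0.81 and 0.64 in TAZ-4SA and between 0.42 and 0.83 in EV. SREBF1 stood under SREBF2 in all TAZ-4SA tumours and in EV tumours 1 and 2, while NPC1 stood under NPC2 in TAZ-4SA tumours 1, 2 and 3 and above it in the other 6 tumours.

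**Figure D3:**
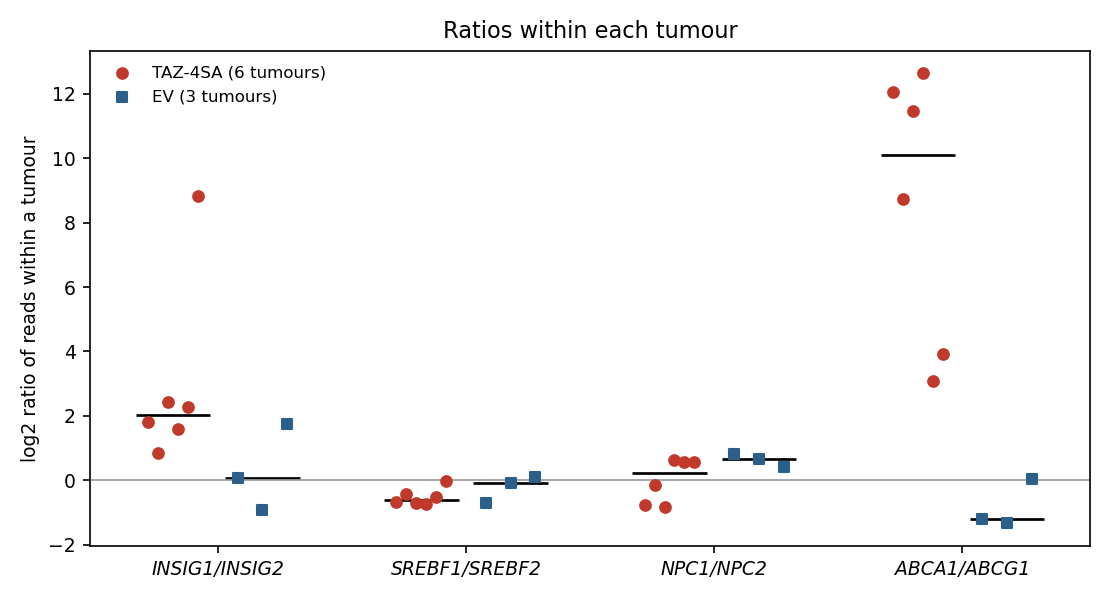
Log2 ratio of reads within a tumour (y axis) for 4 gene pairs (x axis), with 1 circle for each of 6 TAZ-4SA tumours, 1 square for each of 3 EV tumours, black lines at the group medians, and 0.5 reads added to each gene. ABCA1/ABCG1 is the pair without overlap, at 3.08 or more in TAZ-4SA and at most 0.055 in EV.

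The TAZ-4SA tumours differed among themselves far more than the EV tumours did. The median standard deviation of log2 CPM over the 29 genes was 0.966 in TAZ-4SA and 0.246 in EV, and over all genes of 10 to 50 CPM it was 1.44 in TAZ-4SA and 0.265 in EV. HMGCS1, CYP51A1, MSMO1 and EBP shared an order, with tumours 1, 2 and 4 the highest and tumour 5 or 3 the lowest. SCAP, SREBF1 and SREBF2 had the opposite order, with tumours 3 and 5 the highest and tumours 2 and 4 the lowest. LSS, MVK and DHCR7 were highest in tumour 3, and LSS and MVK were at or near 0 reads in tumours 2 and 4. These orders describe 6 libraries that also differ in depth and in genes at 0 reads.

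**Figure D4:**
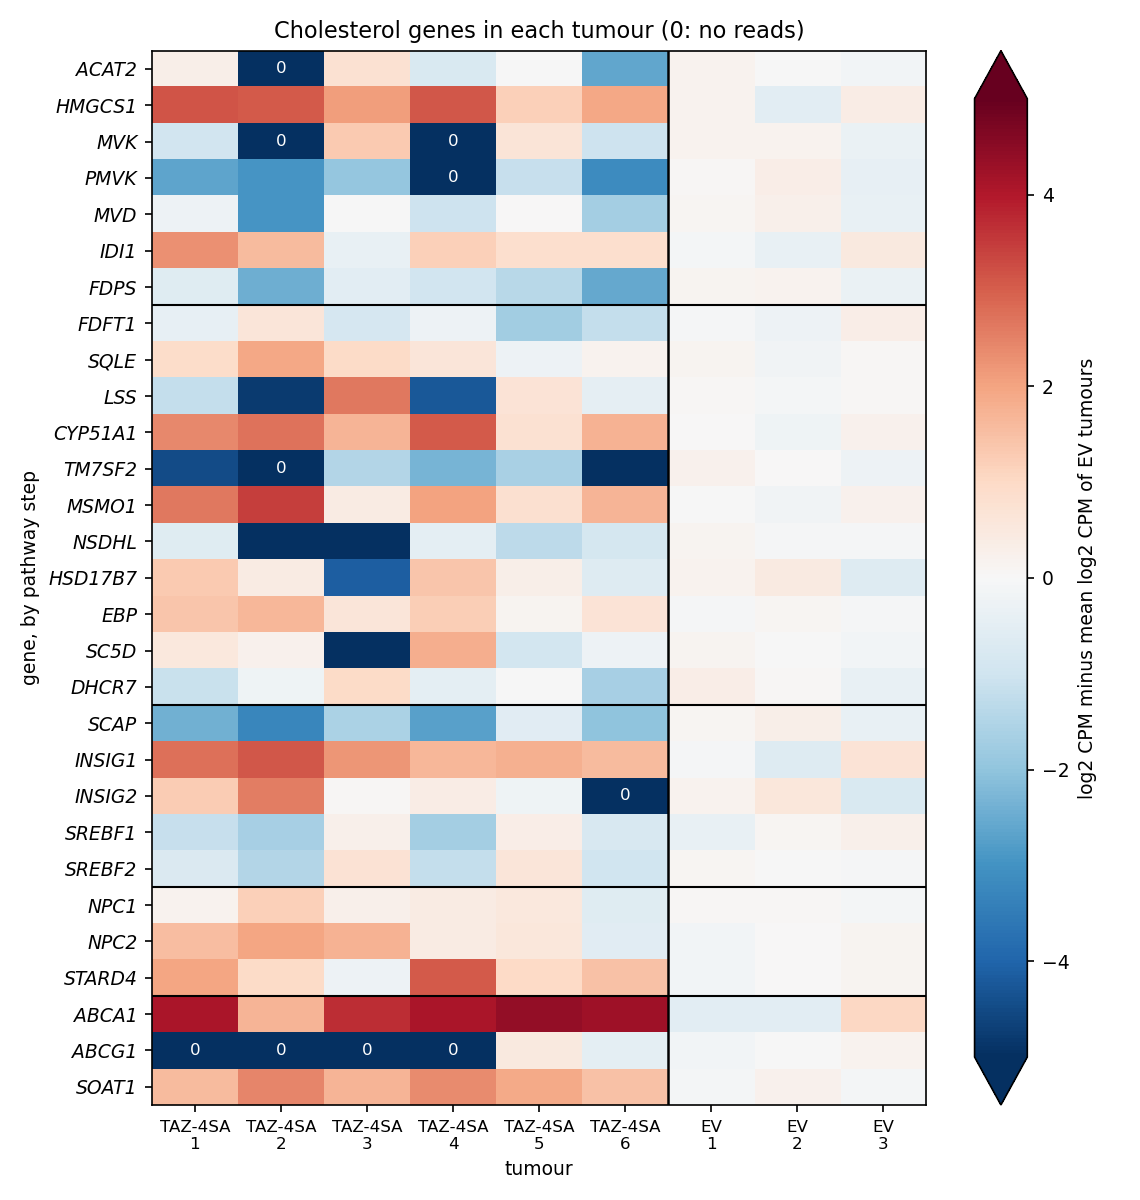
Log2 CPM of each of the 29 genes (y axis, by step) in each tumour (x axis) minus the mean log2 CPM of the EV tumours, red above and blue below, with the colour scale ending at 5 in both directions and 0 printed where a gene had no reads. HMGCS1, CYP51A1, INSIG1, ABCA1 and SOAT1 are red in all 6 TAZ-4SA tumours, SCAP is blue in all 6, and ABCG1 has no reads in 4.

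Levels between genes were compared as CPM per kilobase of the principal transcript. On that scale NPC2 (71.1), FDPS (50.9) and CYP51A1 (48.7) led in TAZ-4SA, and FDPS (119), FDFT1 (61.5) and PMVK (48.2) led in EV. ABCA1 stood at 9.63 CPM per kilobase in TAZ-4SA and 0.73 in EV, where it was the lowest of the 29 genes. LSS stood at 2.06 CPM per kilobase in TAZ-4SA and 1.35 in EV, and ABCG1 at 1.38 in TAZ-4SA, the lowest there, and 3.92 in EV.

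Transcript length moved with the fold change over the whole table, and in part among the cholesterol genes. Across 15069 genes with a length, which are not independent replicates, Spearman's rho between length and log2 fold change was 0.233. The median log2 fold change was -1.32 for genes of 56 to 1995 bases and -0.09 for those of 4853 bases or more. Of the 5 genes that lay wholly below EV, PMVK, FDPS, TM7SF2 and NSDHL are among those under 1996 bases, at 1280 to 1929 bases, and SCAP has 4394 bases. ABCA1 (10494 bases) and SOAT1 (6835 bases) are among those of 4853 bases or more, where 18.6% of all genes were called higher, against 2.63% of the genes under 1996 bases. LSS (4936 bases), SREBF2 (5240 bases) and NPC1 (5157 bases) are there too, with log2 fold changes of -1.22, -0.51 and 0.32. Length groups were 56 to 1995, 1996 to 3106, 3107 to 4852 and 4853 or more bases. In that order, the cholesterol genes had median log2 fold changes of -1.20, -0.50, 1.06 and 0.32. All genes had -1.32, -1.16, -0.65 and -0.09. Called higher were 0 of 8, 1 of 9, 2 of 7 and 2 of 5 cholesterol genes, against 2.63%, 4.99%, 10.8% and 18.6% of all genes. HMGCS1, CYP51A1 and INSIG1 have 3506, 3210 and 3010 bases. EBP and NPC2, with log2 fold changes above 0, have 1775 and 1035, and the other cholesterol genes under 1996 bases had values below 0. With the length trend removed, an adjustment chosen after seeing the data, all 6 calls held, at log2 fold changes of 2.59 for HMGCS1, 2.36 for CYP51A1, 2.56 for INSIG1, 2.86 for ABCA1, 1.32 for SOAT1 and -2.21 for SCAP. The ABCA1 value moved by more than 1.5 times on the linear scale. MSMO1 at 2.50, EBP at 1.73 and NPC2 at 1.76 were then called higher too (limma adjusted p = 0.01871, 0.0125 and 0.0387), which made 8 higher genes and 1 lower (27.6% and 3.45%, against 8.57% and 10.7% of all genes in that fit).

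Of 46 other genes of sterol metabolism, 45 were in the table and 44 were tested. Of these, 3 were called higher, 2 lower and 39 not called, with a median log2 fold change of -0.43. That is 6.82% higher and 4.55% lower, both under the 9.02% and 13.3% of all genes tested. With all tumours 11.4% were called in either direction, against 22.4% of all genes. The number called was 2 without EV tumour 1 (4.55%, against 10.9% of all genes), 2 without EV tumour 2 (4.55%, against 10.6%) and 3 without EV tumour 3 (6.82%, against 13.0%). LBR, the nuclear envelope protein that shares the sterol C14 reductase step with TM7SF2, averaged 128 ± 44.2 CPM in TAZ-4SA, against 24.2 ± 0.844 CPM in EV (log2 fold change 2.31, limma adjusted p = 0.000902), with all 6 TAZ-4SA tumours above EV. LRP8, a lipoprotein receptor of the brain, averaged 93.3 ± 23.2 CPM in TAZ-4SA, against 33.6 ± 10.6 CPM in EV (log2 fold change 1.47, limma adjusted p = 0.01098), and it was not called without EV tumour 1 or EV tumour 2 (limma adjusted p = 0.08015 and 0.06654) or with the length trend removed (log2 fold change 0.80, limma adjusted p = 0.132). OSBPL9, of the oxysterol-binding protein family, averaged 118 ± 37.3 CPM in TAZ-4SA, against 47.0 ± 5.56 CPM in EV (log2 fold change 1.26, limma adjusted p = 0.02119). OSBPL9 lost its call in 5 of 19 alternatives, among them each fit without 1 of EV tumours 1 to 3 (limma adjusted p = 0.08395, 0.1086 and 0.05845). Both lower genes handle sterol entry or oxidation. SCARB1, the receptor that takes up cholesterol esters from high-density lipoprotein, averaged 40.0 ± 22.9 CPM in TAZ-4SA, against 151 ± 33.7 CPM in EV (log2 fold change -2.24, limma adjusted p = 0.03183). SCARB1 lost its call in 8 of 19 alternatives, among them the fits without TAZ-4SA tumour 1 or 6 (limma adjusted p = 0.06007 and 0.06543) and each fit without 1 of EV tumours 1 to 3 (limma adjusted p = 0.09399, 0.1225 and 0.07344). CYP27A1, the mitochondrial sterol 27-hydroxylase, had 0 reads in all 6 TAZ-4SA tumours and 6.00, 6.28 and 3.22 CPM in EV tumours 1 to 3, a level at least 12.3-fold lower than in EV when 3 reads per library are taken as the floor. It was not called under quantile normalization (limma adjusted p = 0.06974).

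Of 5 genes that act around ABCA1, 0 were called by limma, 2 had an unadjusted p under 0.05 (NR1H3 and ABCG4) and 2 were called lower by limma-voom (NR1H3 and RXRA). NR1H2 and NR1H3, the LXR receptors, RXRA, their partner, and the transporters ABCA5 and ABCG4 had a median log2 fold change of -2.60, all 5 below 0. Over all genes tested the median was -0.85, 32.6% lay above 0, and limma-voom called 23.4% lower. NR1H2 averaged 37.7 ± 24.7 CPM in TAZ-4SA, against 93.5 ± 5.25 CPM in EV, and every TAZ-4SA value was under every EV value. The same held for 21.3% of all genes tested. NR1H3 had 0 reads in TAZ-4SA tumours 1 to 4, 6.72 CPM in tumour 5 and 13.4 CPM in tumour 6, against 14.4, 15.2 and 6.96 CPM in EV tumours 1 to 3. NR1H3 and ABCG1 thus had reads in the same pair of TAZ-4SA tumours. These tumours also had the lowest shares of tested genes at 0 reads (7.75% and 16.7%, against 18.2% to 30.8% in tumours 1 to 4). A link between NR1H3 and ABCG1 was not tested. Of the 9 genes of SREBP processing and reductase degradation, 0 were called by limma or by limma-voom and 1, MBTPS1, had an unadjusted p under 0.05. Their median log2 fold change was 0.02.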

How the data were processed

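RNA was extracted with TRIzol and made into libraries with a SMART-Seq kit and Nextera XT, per the labels' protocols, a chemistry that does not keep the strand. HISAT2, edgeR and GRCh38 are listed, with no version, in the submitters' processing notes. How reads were counted, and whether mouse reads were set apart, is not given in the sources used here. Expression is in log2 CPM, as the authors deposited it (unit read from the values), with a shared lowest value of -2.79, a prior of 0.145 CPM. With it removed, 100% of values under 5000 reads were whole within 0.1 read.

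The deposited log2 values were compared with limma 3.58.1 (R 4.3.3; intensity trend, robust) on the 15578 genes averaging 1 CPM or more, adjusted by Benjamini-Hochberg over all of them. Fold changes therefore include the prior, and they depend on it for genes with few or no reads in some tumours. CYP27A1 was at -5.14 on the deposited values and at -2.58 with a pseudocount of 1 CPM. Fold changes compare means of log2 values. Among the 29 genes, LSS, HSD17B7, SC5D and INSIG2 were thus below 0 although their mean CPM was higher in TAZ-4SA. The tumours are not tied to animals in the labels, so p-values measure only the spread between these samples. The members, lists and named genes (all 29, and called genes of the other pathway list) were chosen with earlier results of these data known. Replicate numbers were checked and do not pair tumours. Lengths are those of the principal transcript. Alternatives covered pseudocount, scaling, filter, limma-voom, replicate block, single tumours and, added after seeing the data, the length trend. Per-tumour CPM values have the prior removed.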

Additional observations from a re-analysis of the deposited data

Results flagged for a closer look

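LSS, the lanosterol synthase, stood at 42.5 CPM in TAZ-4SA tumour 3, against a range of 0.101 to 10.6 CPM over the remaining 5 of that group, a gap that exceeds Dixon's critical ratio of 0.625 for 6 samples. It was the 1 case among 35 sets of TAZ-4SA values examined, and chance gives about 1 in 20.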

How the results depend on the processing

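Across 19 alternatives, HMGCS1, CYP51A1, INSIG1 and SOAT1 were called in all 19, with log2 fold changes of 2.09 to 2.84, 1.64 to 2.47, 1.85 to 2.68 and 1.32 to 2.03. ABCA1 was called in 18, all but limma-voom, with 2.86 to 5.20, the highest under quantile normalization. SCAP was called in 16, with -2.49 to -1.66. The number of cholesterol genes called higher lay between 5 and 7 when 1 tumour was left out (17.2% to 24.1%, against 5.13% to 10.8% of all genes). It was 8 with the length trend removed, chosen after seeing the data (27.6%, against 8.57% of all genes). The number called lower was 4 with a pseudocount of 1 CPM (FDPS, PMVK and TM7SF2 joining SCAP; 13.8%, against 15.7% of all genes), 2 under median-of-ratios scaling (6.90%, against 15.3%), 2 under quantile normalization (6.90%, against 10.4%), 5 in limma-voom (17.2%, against 23.4%), 3 without TAZ-4SA tumours 2, 3 and 4 (10.3%, against 14.5%), and 2 without tumours 5 and 6 (6.90%, against 17.7%). It was 0 to 2 with 1 tumour left out (0% to 6.90%, against 5.47% to 17.3%). The 0 came without EV tumour 1 or EV tumour 2, where 5.60% and 5.47% of all genes were called lower. With 1 tumour left out, calls were also gained: MSMO1 and STARD4 without TAZ-4SA tumour 3, MSMO1, EBP and ABCG1 without tumour 5, FDPS without tumour 1 or 3, and PMVK without tumour 4. Of the other pathway genes, 8 were called under median-of-ratios scaling (18.2%, against 23.8% of all genes), 11 in limma-voom (25.0%, against 31.7%), 11 without TAZ-4SA tumours 2, 3 and 4 (25.0%, against 26.6%), and 2 to 7 with 1 tumour left out (4.55% to 15.9%, against 10.6% to 27.4%).

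Over all genes, 1405 were higher and 2079 lower; quantile normalization gave 2042 higher and 1626 lower. The number called higher was 799 to 1685 with 1 tumour left out. The number called lower was 3384 with no filter, 967 with a filter at 10 CPM, 3646 in limma-voom and 852 to 2688 with 1 tumour left out. Among the fits with 1 tumour left out, both counts were lowest without EV tumour 2, with 827 and 872 without EV tumour 1 and 1029 and 990 without EV tumour 3. With the replicate number as a block, 604 genes (3.88%) were called higher and 2057 (13.2%) lower. Of the cholesterol genes, 6 (20.7%) were higher, with NPC2 added, and 1 (3.45%), ABCG1, was lower. SCAP was not called there, at a log2 fold change of -2.42 (limma adjusted p = 0.06234). In that fit TAZ-4SA tumours 4 to 6 carry a number of their own and add nothing; same-number deviations correlated at 0.031, 0.0037 and -0.047.

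Of the 23 uncalled genes, 5 changed sign. LSS was 1.14 and HSD17B7 1.10 under quantile normalization. HSD17B7 was 0.32 without TAZ-4SA tumours 2, 3 and 4 and 0.60 with the length trend removed, and -0.55 to 0.55 with 1 tumour left out. SC5D was -1.29 to 0.27 with 1 tumour left out. DHCR7 was 0.083 with the length trend removed. INSIG2 was 0.35 in limma-voom, 1.29 with the replicate block, 1.06 without tumours 5 and 6, 0.0465 with the length trend removed, and -1.11 to 0.81 with 1 tumour left out. The cause was not tested. Genes with 0 reads in some TAZ-4SA libraries have wide intervals; the deepest of these libraries, tumour 4, had 25.7% of tested genes at 0 reads and the shallow tumours 5 and 6 had 7.75% and 16.7%.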
